A study of Mus musculus with 15 samples.

Results

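The endothelial and angiogenic gene set held 39 genes, chosen by symbol from the 56748 genes of the deposited table, and each symbol matched 1 gene. By role they were 10 surface and junction genes of endothelium in general, 3 endothelial transcription factors, 5 VEGF ligands, 3 VEGF receptors, 4 genes of the angiopoietin and TIE receptor pathway, 2 of the apelin pathway, 5 of specialised capillaries, 5 of activated and venular endothelium, and 2 lymphatic genes. Their RNA was measured in 15 bulk libraries from wild-type male C57Bl/6 mice, 3 libraries in each of 5 groups, in a study of a leptin-neutralizing antibody (LepAb) given during organ fibrosis. WTK mice received vehicle, and the labels give them neither folic acid nor antibody. In the study's methods, vehicle and folic acid mice of the kidney model were 10 to 12 weeks old at injection. Their tissues were collected on day 28. IgGK and LepK mice were injected once with folic acid at 200 mg/kg and then given control IgG or LepAb at 10 mg/kg every other day for 21 days. IgGL and LepL mice were 12 weeks old and received a single intratracheal dose of bleomycin (1.5 units/kg), followed by IgG or LepAb at 10 mg/kg for 14 days, and their lungs were collected on day 14. All injured groups shared repeated antibody injections, and a vehicle lung group was not analysed here. Total counts ranged from 25913969 to 38924788 per library.

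Endothelial cells line blood and lymph vessels and are joined by adhesion proteins such as PECAM1 and VE-cadherin (*Cdh5*). VEGF ligands act on the receptors FLT1, KDR and FLT4 to drive vessel growth, permeability and survival, while angiopoietin 1 activates the receptor TEK and keeps vessels quiet, and angiopoietin 2 often opposes it. In the kidney, tubule cells and podocytes supply VEGFA to the capillaries beside them, and loss of peritubular capillaries accompanies fibrosis. In the lung, alveolar epithelium supplies VEGFA to a dense capillary bed. Inflamed venules display selectins and ICAM1, which slow and hold leukocytes.

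Promoter windows are shown for 4 genes whose response to the antibody differed between kidney and lung, as described further on. The RefSeq table (GRCm38.p6, an older build than that of the counts) held windows of 300 bases, with 250 before and 50 after the start, for 25 of the 39 genes. AGGAAG, the NF-kappaB consensus and ACGTG were searched on both strands in the 32 windows of these genes and in all 32851 windows, and matches of different motifs overlapped in 1 place. AGGAAG, a core that ETS factors such as ERG can bind, was found in 14 of 32 windows (43.8%, against 35.4% of all windows). The NF-kappaB consensus was found in 6 (18.8%, against 8.46%), and ACGTG, the core of the hypoxia response element, in 3 (9.38%, against 19.6%). *Robo4* (chr9:37401722-37402021, plus strand), *Ehd3* (chr17:73804591-73804890, plus) and *Exoc3l2* (chr7:19463037-19463336, plus) held 1 AGGAAG match and *Flt1* (chr5:147725962-147726261, minus) held 2. These 4 windows were chosen because they held a match, and are shown 5′ to 3′ with the matches in capitals, and a match on the other strand reads CTTCCT. *Flt4* also had a window, without a match, and *Sox17* and *Aplnr* had none in the table. The last bases of the *Robo4*, *Flt1* and *Ehd3* windows were found near the start of a reference transcript of the gene. Those of the *Exoc3l2* and *Flt4* windows were not.
Robo4: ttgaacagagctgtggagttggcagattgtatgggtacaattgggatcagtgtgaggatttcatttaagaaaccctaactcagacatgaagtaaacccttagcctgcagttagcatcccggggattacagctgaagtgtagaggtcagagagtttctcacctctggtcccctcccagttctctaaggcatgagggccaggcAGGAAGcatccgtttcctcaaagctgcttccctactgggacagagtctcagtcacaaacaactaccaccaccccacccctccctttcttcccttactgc
Flt1: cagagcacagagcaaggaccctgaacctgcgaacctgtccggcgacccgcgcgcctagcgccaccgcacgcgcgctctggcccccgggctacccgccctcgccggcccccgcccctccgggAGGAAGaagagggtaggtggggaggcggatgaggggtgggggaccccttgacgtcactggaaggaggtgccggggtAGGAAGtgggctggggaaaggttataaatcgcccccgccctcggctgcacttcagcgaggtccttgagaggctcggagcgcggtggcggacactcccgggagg
Ehd3: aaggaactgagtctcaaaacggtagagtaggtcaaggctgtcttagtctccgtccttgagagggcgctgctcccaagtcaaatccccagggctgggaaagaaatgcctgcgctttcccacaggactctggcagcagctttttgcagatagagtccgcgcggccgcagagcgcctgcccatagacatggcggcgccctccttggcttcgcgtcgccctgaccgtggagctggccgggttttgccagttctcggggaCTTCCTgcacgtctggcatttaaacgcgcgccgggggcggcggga
Exoc3l2: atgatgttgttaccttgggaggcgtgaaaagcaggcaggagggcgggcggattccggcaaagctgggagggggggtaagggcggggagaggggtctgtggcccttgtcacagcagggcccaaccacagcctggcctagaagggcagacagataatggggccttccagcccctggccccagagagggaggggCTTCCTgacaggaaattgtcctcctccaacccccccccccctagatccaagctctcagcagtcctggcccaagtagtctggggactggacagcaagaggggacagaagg

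All 39 genes passed the filter on low counts in both organs. In the kidney 35 of them were over its cutoff in every library. The other genes (*Sele*, *Selp*, *Ackr1* and *Lyve1*) were not. In the lung all 39 were over it in every library. The endothelial markers were present in every library. *Pecam1* lay at 4.61 to 7.25 FPKM (fragments scaled by gene length and library depth, which allows levels of different genes to be compared) in the 9 kidney libraries and at 53.4 to 62.4 FPKM in the 6 lung libraries. *Cdh5* lay at 4.25 to 6.21 FPKM in kidney and 75.3 to 108 FPKM in lung.

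In levels per length, 29 genes were higher in every lung library than in every kidney library, 7 overlapped and 3 were higher in every kidney library. The same order was not counted over all genes, so these counts do not show a trait particular to this set. They are descriptions, since organ, injury and day of collection changed together. Of the genes higher in lung, *Lyve1*, a hyaluronan receptor of lymphatic endothelium that some macrophages also carry, had 0.0414 to 0.406 FPKM in kidney and 43.0 to 145 FPKM in lung. *Vwf*, which carries platelets to damaged vessel wall, had 0.254 to 0.955 and 20.1 to 37.4 FPKM. *Gpihbp1*, the capillary platform for lipoprotein lipase, had 2.54 to 5.62 and 25.5 to 48.9 FPKM. These 3 genes lay further apart between organs than *Eng*, a TGF-beta co-receptor, at 20.2 to 26.6 against 47.2 to 63.5 FPKM.

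The 3 genes with the reverse order were *Vegfb*, *Exoc3l2* and *Prox1*. *Vegfb*, a ligand of FLT1, had 23.4 to 33.4 FPKM in kidney and 6.01 to 9.80 FPKM in lung. *Exoc3l2*, related to the exocyst that tethers vesicles to the cell membrane, had 4.39 to 9.83 and 0.851 to 2.51 FPKM. *Prox1*, the master regulator of lymphatic identity, had 0.833 to 1.46 and 0.258 to 0.484 FPKM, the opposite order from *Lyve1*. The genes whose ranges met were *Emcn*, *Vegfa*, *Angpt2*, *Aplnr*, *Ehd3*, *Car4* and *Ackr1*.

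In WTK kidney the order of mean levels was led by *Car4* at 79.1 ± 11.6 FPKM (SD, n = 3), *Vegfa* at 67.5 ± 2.21, *Plvap* at 56.6 ± 4.59 and *Vegfb* at 31.2 ± 1.96, and these 4 did not overlap one another. From *Emcn* (rank 8) to *Sox18* (rank 17) each gene overlapped its neighbour in the order. *Ackr1*, *Selp* and *Sele* came last, each with a mean under that of every other member. In IgGK the same leaders were closer together, with *Plvap* at 33.6 ± 1.35, *Vegfa* at 32.2 ± 2.04 and *Car4* at 29.0 ± 5.51 FPKM, and these overlapped. In IgGL the order was led by *Cldn5*, a tight junction protein, at 176 ± 36.3 FPKM and *Lyve1* at 104 ± 37.9 FPKM, and *Lyve1* overlapped *Plvap* at 99.4 ± 13.1 FPKM.

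**Figure D1:**
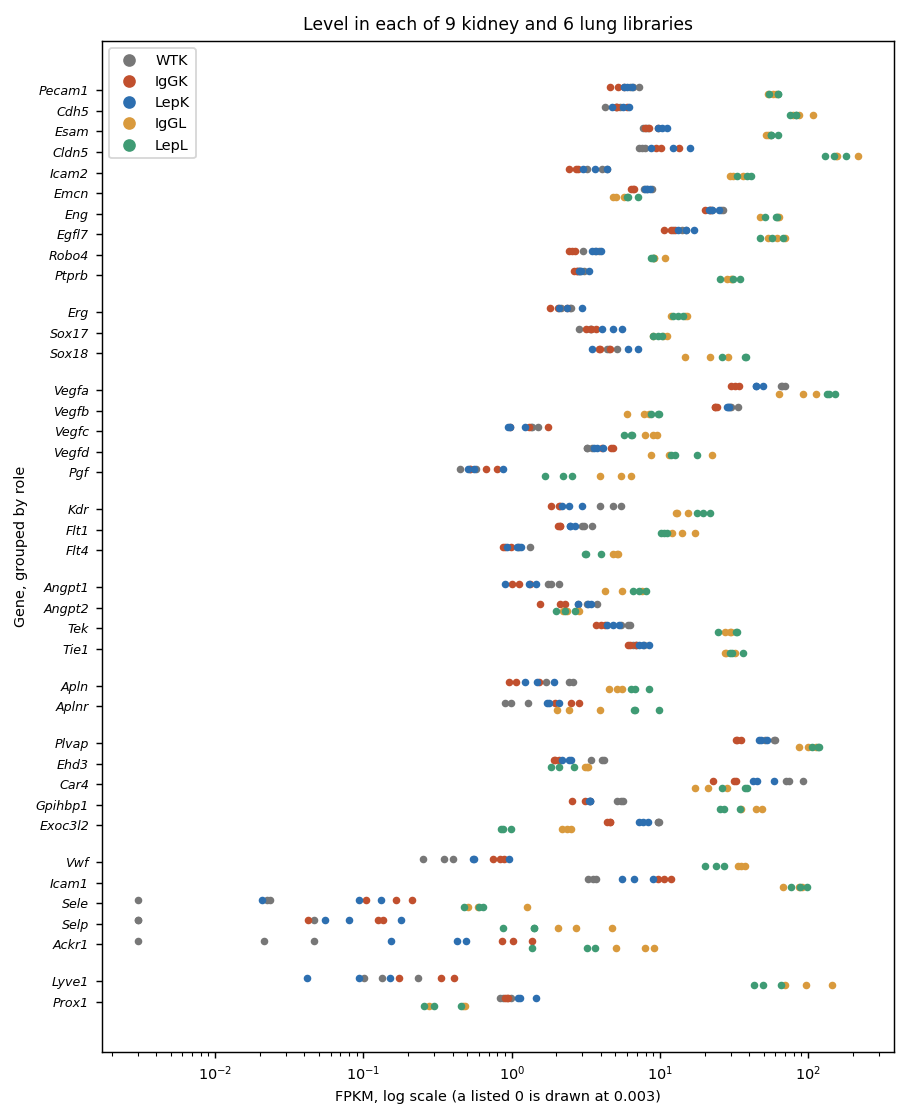
FPKM of each gene (vertical axis, grouped by role) in each library (points, coloured by group) on a log horizontal axis. Lung points lie right of all kidney points for 29 of the 39 genes and left of them for *Vegfb*, *Exoc3l2* and *Prox1*.

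The first kidney comparison asked how the injured, IgG-treated kidney (IgGK) differed from the vehicle kidney (WTK). CPM values (counts divided by library depth), scaled with edgeR's TMM factors and called normalized CPM, are used from here on. They compare 1 gene between groups, and a call required a log2 fold change beyond 0.5 in either direction and a Benjamini-Hochberg adjusted p under 0.05 in edgeR's quasi-likelihood test over all 19593 genes tested. Of the 39 genes, 7 were called higher and 13 lower, against 21.7% of all genes tested called higher and 15.6% called lower. With scaling by library size alone the split was 14 higher and 4 lower, against 39.8% and 6.01% of all genes tested. The median log2 fold change of all genes was 0.48 with that scaling and 0.04 with TMM. The median of the 39 genes was below that of all genes in both, at -0.19 with TMM and 0.25 with library size. The libraries of IgGK were all above those of WTK for 7 genes (32.5% of all genes) and all below for 20 (30.1%). In bulk RNA, fewer endothelial cells and less RNA per cell cannot be told apart.

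The general endothelial genes moved little with TMM scaling. *Pecam1* was measured at 49.9, 47.3 and 54.5 normalized CPM in WTK and at 35.5, 44.3 and 40.4 in IgGK. *Cdh5* was at 21.6, 25.5 and 27.3 in WTK and at 26.2, 31.1 and 26.9 in IgGK. *Pecam1* thus lay below WTK in all IgGK libraries, by less than the fold threshold (log2 fold change -0.34 ± 0.09 SE, adjusted p = 0.00689, with the sign turning under library-size scaling), while *Cdh5* overlapped (0.18 ± 0.12, adjusted p = 0.229). Under library-size scaling *Cdh5* was called higher in IgGK, as were *Esam*, *Sox17*, *Prox1*, *Lyve1*, *Pgf* and *Vegfd*. Of the 10 surface and junction genes, *Cldn5* rose 1.49-fold and *Icam2*, an adhesion molecule of resting endothelium, fell 1.42-fold. Log2 fold changes of the other 8 ran from -0.43 (*Robo4*) to 0.18, with *Esam* at 0.14, *Emcn* at -0.31, *Eng* at -0.19, *Egfl7* at -0.20 and *Ptprb* at -0.08. *Robo4* and *Emcn*, like *Pecam1*, missed only the fold threshold. *Fpgs* and *Agpat2*, which overlap *Eng* and *Egfl7* on the other strand, had 21.2% and 28.8% as many counts over all libraries. The calls of *Cldn5* and *Icam2* were lost in 3 and 4 of the 9 fits that each left out 1 library. These were WTK replicates 2 and 3 and IgGK replicate 2 for *Cldn5* (0.41 to 0.67 over all 9) and WTK replicates 2 and 3 and IgGK replicates 1 and 3 for *Icam2* (-0.63 to -0.41). The transcription factors were not called with TMM, with *Erg* at -0.16 ± 0.16, *Sox17* at 0.14 ± 0.12 and *Sox18* at -0.15 ± 0.21.

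Of the 13 genes that fell, 6 belonged to the VEGF and angiopoietin pathways. *Vegfa*, the main growth signal for blood vessels, ranged from 339 to 363 normalized CPM in WTK and from 161 to 182 in IgGK, so that no IgGK library reached WTK. It fell 2.04-fold (log2 fold change -1.03 ± 0.07, adjusted p = 1.99e-07). *Kdr*, the main signaling receptor for VEGFA, was at 43.3, 59.6 and 52.5 in WTK and at 23.7, 23.2 and 20.7 in IgGK. It fell 2.30-fold (-1.20 ± 0.13, adjusted p = 5.81e-06). *Flt1*, a receptor that also traps VEGFA, fell 1.48-fold, and the call was lost without WTK replicate 3, at the fold threshold (-0.60 to -0.50 over the fits without 1 library). *Flt4*, the VEGFC receptor, was at -0.32 (adjusted p = 0.0551). The other ligands were not called. *Vegfb* was at -0.35, *Vegfc*, a lymphatic growth factor, at -0.03, *Vegfd* at 0.48 and *Pgf*, placental growth factor, at 0.39. Of these, *Vegfb* and *Vegfd* had an adjusted p under 0.05 and missed only the fold threshold. *Vegfd* was called higher without WTK replicate 2 or IgGK replicate 3.

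Of the angiopoietin group, *Angpt1* fell 1.60-fold, *Angpt2* 1.61-fold and their receptor *Tek* 1.45-fold, while the co-receptor *Tie1* was at -0.10 ± 0.09. The *Tek* call was lost without WTK replicate 2 or IgGK replicate 1 (-0.59 to -0.48). With library-size scaling the calls of *Flt1*, *Angpt1*, *Angpt2*, *Tek* and *Icam2* were lost, and those of *Vegfa* and *Kdr* were held. *Angpt2* lies within *Mcph1* on the other strand, which had 58.4% as many counts, and reads of overlapping genes cannot be told apart in these unstranded libraries. Both ligands fell alike, so the log2 ratio of *Angpt2* to *Angpt1* was 0.28 ± 0.10 (SD, n = 3) in WTK and 0.28 ± 0.49 in IgGK (two-sided exact permutation p = 1, where 3 against 3 libraries allow no p below 0.1).

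The ligand and receptor of the apelin pathway, which acts in sprouting vessels, changed in opposite directions. *Apln* fell 1.85-fold, from a range of 6.52 to 9.79 normalized CPM in WTK to 3.77 to 5.97 in IgGK (adjusted p = 0.00669). *Aplnr* was at 4.44, 5.73 and 4.04 in WTK and at 11.5, 13.1 and 9.08 in IgGK. It rose 2.37-fold (1.25 ± 0.18, adjusted p = 8.53e-05), with no overlap between groups. The *Aplnr* call was held with library-size scaling and the *Apln* call was not.

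All 5 genes of specialised capillaries fell. *Car4*, a membrane-bound carbonic anhydrase of capillaries and also of the proximal tubule, was at 220, 168 and 176 normalized CPM in WTK and at 79.5, 55.4 and 77.6 in IgGK. *Exoc3l2* was at 47.4, 46.8 and 47.6 in WTK and at 21.8, 23.1 and 23.1 in IgGK. *Plvap*, which forms the diaphragm of capillary fenestrae, was at 124, 142 and 143 in WTK and at 86.3, 81.2 and 80.8 in IgGK. In each of these genes every IgGK library lay below every WTK library. The falls were 2.65-fold for *Car4* (adjusted p = 8.13e-06), 2.08-fold for *Exoc3l2* (1.61e-07) and 1.64-fold for *Plvap* (4.72e-06). *Ehd3*, a membrane-trafficking protein of glomerular endothelium, fell 1.90-fold and *Gpihbp1* 1.74-fold. With library-size scaling *Car4* and *Exoc3l2* kept their calls and the other 3 lost theirs. Markers of the proximal tubule (*Slc34a1*, *Lrp2*, *Slc5a2*, *Slc22a6*) moved with them, in that all 4 were called lower, and their summed level was 12894 to 13750 normalized CPM in WTK and 2940 to 3942 in IgGK. Of 4 podocyte markers 2 were higher, with sums of 75.7 to 79.8 and 105 to 131. Their part in the *Car4* and *Vegfa* values was not tested.

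All 5 genes of activated and venular endothelium rose. *Icam1*, the leukocyte adhesion molecule that other cell types also carry, was at 18.8, 19.4 and 17.1 normalized CPM in WTK and at 57.4, 63.8 and 52.5 in IgGK. *Vwf* was at 6.85, 4.94 and 7.79 in WTK and at 17.7, 16.6 and 14.9 in IgGK. The groups did not overlap for either gene, and the rises were 3.15-fold (1.65 ± 0.15, adjusted p = 1.61e-06) and 2.51-fold (1.33 ± 0.22, adjusted p = 0.000241). *Sele*, *Selp* and *Ackr1* had almost no reads in WTK and passed the filter only through the injured groups, so they could only differ in this direction. The calls of these genes are no support for the 5 counted here or for the 7 higher genes of the whole set.

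*Ackr1*, a chemokine-binding receptor of venules, was at 0, 0.079 and 0.0361 normalized CPM in WTK and at 1.78, 2.40 and 1.50 in IgGK. With 3 counts in all WTK libraries against 190, the ratio of summed counts, scaled for depth, was 48.9 (95% exact interval 16.5 to 239, counting error only). *Sele*, the endothelial selectin, was at 0.0831, 0.079 and 0 in WTK and at 0.594, 0.772 and 0.376 in IgGK (4 against 58 counts, ratio 11.2, 4.14 to 42.4). *Selp*, the selectin that endothelium and platelets store, was at 0.249, 0 and 0 in WTK and at 0.231, 0.743 and 0.694 in IgGK (6 against 57 counts, ratio 7.33, 3.17 to 20.8). *Ackr1* and *Sele* did not overlap between groups and *Selp* did, and the *Selp* call was lost without WTK replicate 2 or 3 or IgGK replicate 2 or 3 (2.15 to 7.08). *Cadm3*, which overlaps *Ackr1* on the same strand, had 52.6% as many counts over all libraries. The summed level of 6 macrophage markers moved in the same direction, from 178 to 204 normalized CPM in WTK to 1600 to 2035 in IgGK, with 6 of 6 called higher. That of 5 fibroblast markers went from 98.4 to 142 in WTK to 926 to 1058 in IgGK, with 5 of 5 called higher. Their part in the rises was not tested. Of the lymphatic genes, *Lyve1* (adjusted p = 0.144) and *Prox1* (0.07 ± 0.14) were not called.

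**Figure D2:**
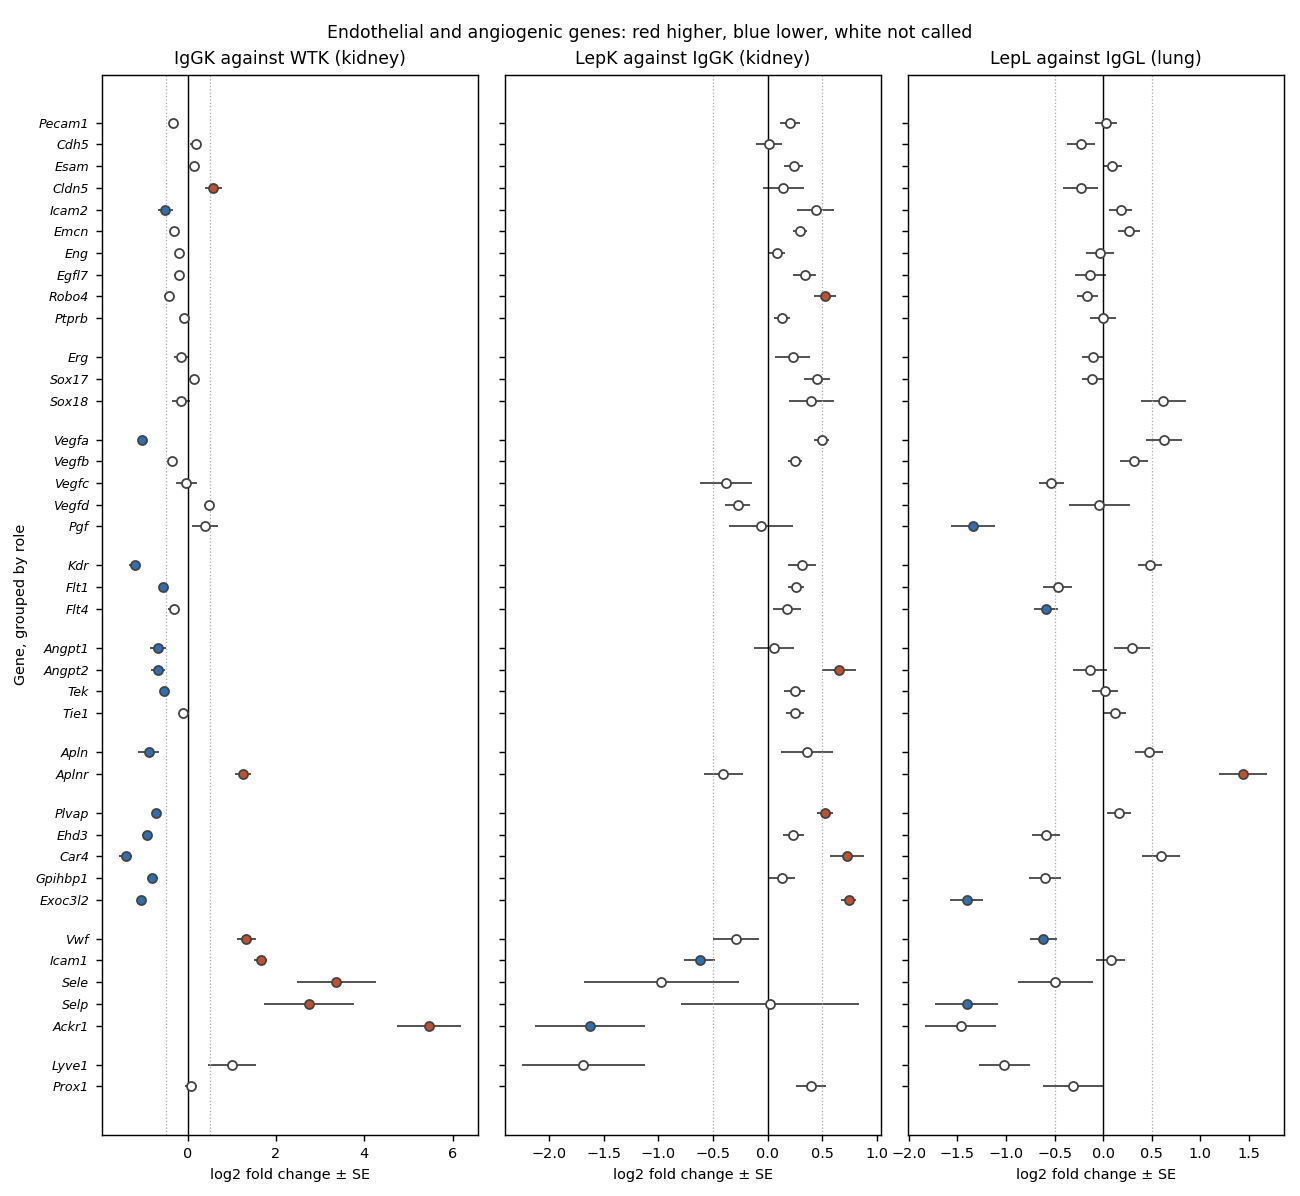
Log2 fold change ± SE (horizontal axes) of the 39 genes (vertical axis, grouped by role) for IgGK against WTK, LepK against IgGK and LepL against IgGL, with called genes in red (higher) or blue (lower) and dotted lines at an absolute value of 0.5. The axes differ in range between panels. All 5 genes from *Plvap* to *Exoc3l2* are blue and all 5 from *Vwf* to *Ackr1* are red in the first panel.

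The next comparison asked what the antibody changed in the injured kidney. It shares the IgGK libraries with the comparison above, so a library that is by chance high or low there moves both in opposite directions, and values are set side by side without a test of their relation. Of the 39 genes, 5 were called higher in LepK than in IgGK (4.38% of all genes tested) and 2 lower (5.99%). With library-size scaling the split was 2 higher and 4 lower, against 2.08% and 11.2% of all genes tested. The median of all genes moved from -0.01 to -0.19 under that scaling. The median of the 39 genes was 0.23 with TMM and 0.05 with library size. LepK libraries were all above IgGK for 17 genes (17.8% of all genes) and all below for 4 (19.5%).

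*Angpt2* was at 10.4, 9.66 and 7.17 normalized CPM in IgGK and at 15.4, 14.6 and 12.7 in LepK, a 1.57-fold rise (0.65 ± 0.16, adjusted p = 0.0120). *Robo4*, a guidance receptor that stabilises vessels, was at 16.1, 17.5 and 16.9 in IgGK and at 25.9, 24.0 and 22.5 in LepK, a 1.44-fold rise (adjusted p = 0.00360). The groups were apart in both genes, and the LepK values lay within the WTK range or up to 25.9 against a highest WTK value of 24.8. *Robo4* was the only gene called here that was not called in IgGK against WTK.

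Of the genes of specialised capillaries 3 rose. *Plvap* was at 128, 116 and 114 in LepK against 80.8 to 86.3 in IgGK (1.44-fold, adjusted p = 0.000698). *Car4* was at 142, 102 and 108 against 55.4 to 79.5 (1.66-fold, adjusted p = 0.00609). *Exoc3l2* was at 40.3, 35.6 and 37.7 against 21.8 to 23.1 (1.67-fold, 0.74 ± 0.07, adjusted p = 7.96e-05). Every LepK library exceeded every IgGK library in all 3 genes. *Ehd3* (0.23 ± 0.10) and *Gpihbp1* (0.13 ± 0.12) were not called. The proximal tubule markers moved the same way here too, with all 4 called higher and a summed level of 5389 to 7087 normalized CPM in LepK, and their part was not tested. *Car4* and *Exoc3l2* kept their calls in all 9 fits without 1 library and under library-size scaling. *Angpt2*, *Plvap* and *Robo4* lost theirs under that scaling.

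The genes that fell were *Icam1* and *Ackr1*. *Icam1* was at 29.2, 35.7 and 48.1 normalized CPM in LepK against 52.5 to 63.8 in IgGK (1.54-fold lower, -0.62 ± 0.14, adjusted p = 0.00960). *Ackr1* was at 0.263, 0.838 and 0.738 in LepK against 1.50 to 2.40 in IgGK (3.08-fold lower, -1.63 ± 0.51, adjusted p = 0.0392). Neither gene overlapped between the groups. *Ackr1* passed the filter on low counts only through IgGK, the group where it was high, so its call is no support for a count of genes that fell. The *Ackr1* call was held in 3 of 9 fits without 1 library and lost without WTK replicate 3, any IgGK replicate, or LepK replicate 1 or 3 (-1.92 to -1.26). Without LepK replicate 1, *Icam1*, *Plvap* and *Robo4* lost their calls as well (-0.46 at the weakest for *Icam1*). In that fit 3 higher (2.94% of all genes) and 0 lower (3.5%) remained. *Selp* was at 0.428, 0.972 and 0.295 in LepK and overlapped IgGK (0.02 ± 0.81), *Sele* was at 0.329, 0.469 and 0.0738 (-0.97 ± 0.71), and *Vwf* at 10.7, 18.7 and 10.9 (-0.29 ± 0.21). The macrophage markers were summed at 568 to 842 normalized CPM in LepK, with 5 of 6 called lower, and the fibroblast markers at 313 to 524, with 5 of 5 called lower. The 4 red cell markers were all called higher in LepK, at 211 to 366 against 75.5 to 159 in IgGK. Their part in the *Icam1* and *Ackr1* values was not tested.

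The remaining members did not pass. *Vegfa* ranged from 233 to 257 in LepK against 161 to 182 in IgGK, and its log2 fold change of 0.49 ± 0.07 (adjusted p = 0.000702) fell just under the fold threshold. *Kdr* was at 32.7, 26.9 and 24.2 in LepK (0.31 ± 0.13, adjusted p = 0.111). *Aplnr* was at 7.80, 9.49 and 8.12 (-0.41 ± 0.18, adjusted p = 0.130), overlapping IgGK. *Pecam1* was at 45.6, 49.5 and 43.7 (0.21 ± 0.09) and *Cdh5* at 28.8, 31.9 and 24.3 (0.01 ± 0.12), and both overlapped between the antibody groups. Of the other 8 surface and junction genes, *Robo4*, *Icam2* (0.44 ± 0.17), *Emcn* (0.30 ± 0.07, adjusted p = 0.00796), *Egfl7* (0.34 ± 0.10, adjusted p = 0.0363) and *Ptprb* (0.13 ± 0.07) had every LepK library above IgGK, although *Robo4* alone was called, and *Ptprb* turned its sign under library-size scaling. *Sox17* was at 0.45 ± 0.12 (adjusted p = 0.0181) and *Lyve1* at -1.69 ± 0.56 (adjusted p = 0.0523). The log2 ratio of *Angpt2* to *Angpt1* was 0.89 ± 0.44 (SD, n = 3) in LepK, 0.61 above IgGK (two-sided exact permutation p = 0.2).

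Against the vehicle kidney, LepK had 7 genes higher (15.2% of all genes tested) and 6 lower (7.30%). With library-size scaling there were 10 higher (24.4%) and 1 lower (2.61%), and *Kdr* alone kept its lower call. LepK libraries were all above WTK for 10 genes (25.6% of all genes) and all below for 11 (24.6%). The median of the 39 genes was -0.01, beside 0.03 for all genes. Both comparisons with WTK share its libraries, so a library high or low there by chance moves both in the same direction. Genes called alike in both are therefore not independent evidence. Of the 13 genes that fell in IgGK, 6 were also lower in LepK than in WTK: *Vegfa* (1.45-fold), *Kdr* (1.85-fold), *Angpt1* (1.54-fold), *Ehd3* (1.62-fold), *Car4* (1.60-fold) and *Gpihbp1* (1.59-fold). *Angpt2* (-0.03 ± 0.16), *Plvap* (-0.19 ± 0.07) and *Exoc3l2* (-0.32 ± 0.07) were not called against WTK. Of the 7 genes that rose in IgGK, 6 were also higher in LepK, with *Icam1* 2.04-fold, *Vwf* 2.06-fold, *Aplnr* 1.79-fold and *Cldn5* 1.65-fold above WTK, and *Ackr1* at 53 against 3 counts (ratio 15.6, 5.06 to 78.1). *Selp* was the sixth, with an adjusted p of 0.0498 that held in 1 of 9 fits without 1 library, the one without WTK replicate 1. *Ackr1* and *Selp* passed the filter on low counts only through the injured groups, so they could only differ upward. Their calls are no support for a count of genes that rose. In a fit of LepK and WTK alone neither passed that filter, so they were not tested there. *Sox17*, an arterial transcription factor, was called only in this kidney comparison (1.51-fold higher, adjusted p = 0.00198). Without LepK replicate 2, *Sox17* (0.48), *Cldn5* (0.49) and *Angpt1* (-0.44) lost their calls, and *Angpt1* lost it without WTK replicate 1 too.

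**Figure D3:**
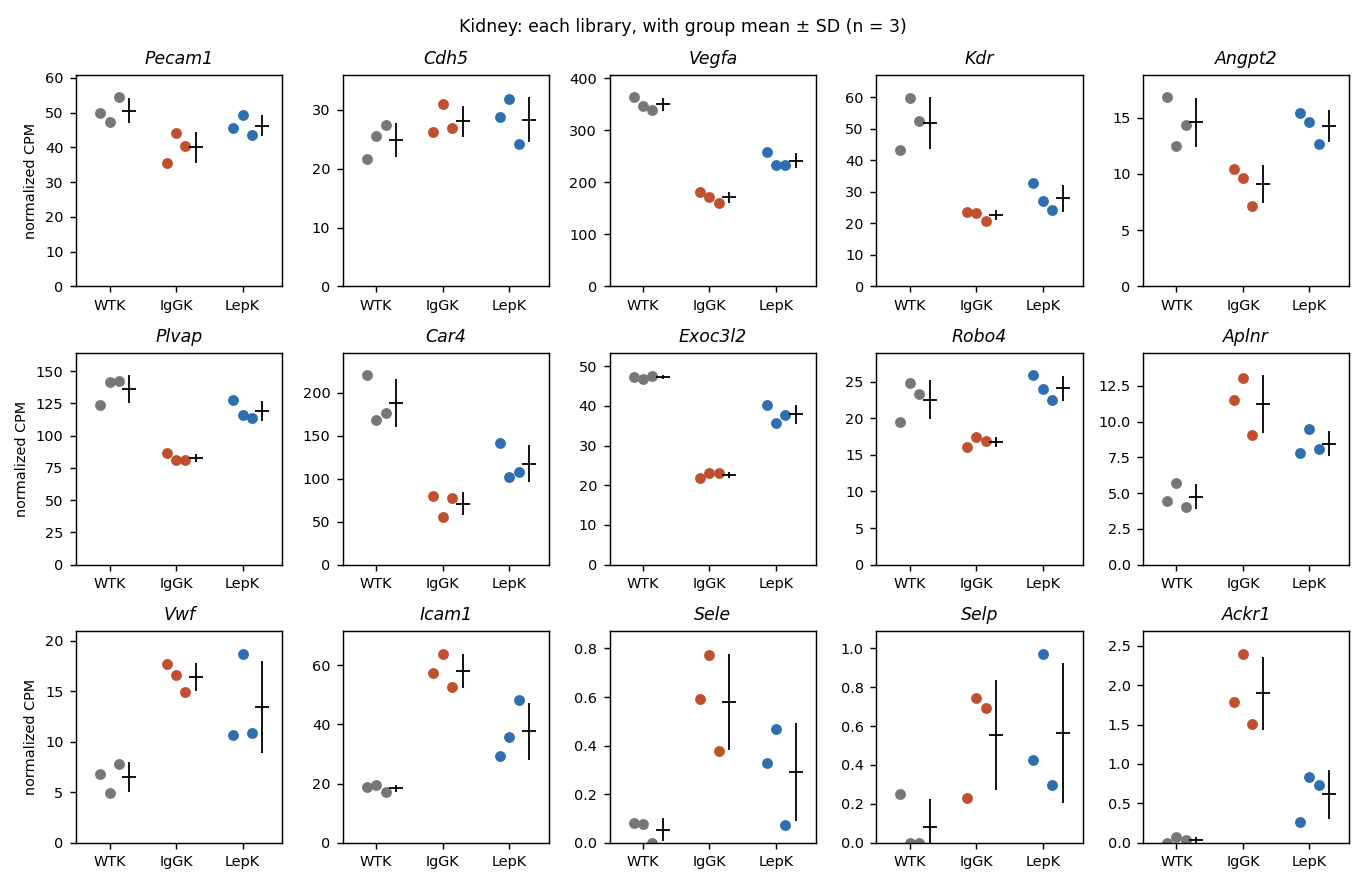
Normalized CPM (vertical axes, from 0) of 15 genes in the 9 kidney libraries (points) by group, with the mean ± SD of 3 libraries beside them. *Vegfa*, *Kdr*, *Plvap*, *Car4* and *Exoc3l2* are lowest in IgGK, and *Icam1* and *Ackr1* are highest there.

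The lung comparison asked what the antibody changed after bleomycin. Of the 39 genes, 1 was higher in LepL than in IgGL (1.78% of the 19617 genes tested) and 5 were lower (2.36%). The median of the 39 genes was -0.11, beside 0.00 for all genes. LepL libraries were all above IgGL for 7 genes (16.0% of all genes) and all below for 12 (17.3%). *Pecam1* was at 518, 487 and 557 normalized CPM in IgGL and at 486, 557 and 552 in LepL, and *Cdh5* was at 524, 489 and 674 and at 451, 496 and 494. Both markers overlapped between groups (0.03 ± 0.12 and -0.23 ± 0.14).

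*Aplnr* was the gene that rose. It was at 21.1, 13.2 and 11.1 normalized CPM in IgGL and at 35.9, 35.5 and 51.6 in LepL, 2.71-fold higher (1.44 ± 0.25, adjusted p = 0.0327). Its ligand *Apln* was at 20.9 to 26.0 in IgGL and 28.9 to 37.7 in LepL, which did not overlap but did not pass the test (0.47 ± 0.14, adjusted p = 0.0812).

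*Exoc3l2* was at 13.6, 14.7 and 12.9 in IgGL and at 4.86, 5.05 and 5.64 in LepL, 2.65-fold lower (-1.41 ± 0.17, adjusted p = 0.0327). *Pgf*, a ligand of FLT1, was at 16.5, 23.3 and 27.6 in IgGL and at 10.5, 9.23 and 6.95 in LepL, 2.53-fold lower (adjusted p = 0.0327). *Flt4* was at 56.8, 61.6 and 63.8 against 36.9, 46.9 and 36.9 in LepL (1.51-fold lower, adjusted p = 0.0395). No LepL library reached IgGL in these genes. *Vwf* was at 816, 880 and 806 against 546, 625 and 461 in LepL (1.53-fold lower, adjusted p = 0.0453). *Selp* was at 13.1, 17.5 and 31.0 against 8.91, 8.88 and 5.47 (2.65-fold lower, adjusted p = 0.0493). Both venular genes were apart between the groups as well, with the *Selp* values of IgGL the more widely spread.

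Among members that did not pass, *Ackr1* was at 10.1, 18.7 and 16.6 in IgGL and at 7.25, 6.48 and 2.75 in LepL (-1.47 ± 0.37, adjusted p = 0.0553). *Kdr* was at 170 to 201 against 228 to 281 in LepL (0.48 ± 0.12, adjusted p = 0.0546), and *Vegfa* at 404 to 692 against 811 to 922 (0.62 ± 0.19, adjusted p = 0.0796). *Icam1* was at 541, 575 and 438 against 608, 553 and 478 (0.08 ± 0.15), *Angpt2* at 11.8, 12.7 and 15.5 against 10.4, 12.03 and 13.98 (-0.14 ± 0.18), *Plvap* at 321, 251 and 292 against 302, 331 and 335 (0.16 ± 0.12) and *Car4* at 79.6, 60.6 and 50.1 against 73.4, 105 and 108 (0.59 ± 0.19). *Sox18*, *Vegfc*, *Ehd3*, *Gpihbp1* and *Lyve1* also had absolute log2 fold changes over 0.5 with an adjusted p between the threshold and 0.128. The log2 ratio of *Angpt2* to *Angpt1* was -1.68 ± 0.60 (SD, n = 3) in IgGL and -2.14 ± 0.20 in LepL (two-sided exact permutation p = 0.3).

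With 4 residual degrees of freedom the lung calls depended on single libraries. All 6 were lost without IgGL replicate 2 or 3 or LepL replicate 1, 2 or 3, when 0 to 18 genes of the whole table were called higher and 0 to 4 lower, and none of the 6 log2 fold changes turned its sign (*Aplnr* 1.24 to 1.76, *Exoc3l2* -1.47 to -1.35, *Pgf* -1.52 to -1.17, *Flt4* -0.71 to -0.53, *Vwf* -0.73 to -0.51, *Selp* -1.65 to -0.99). With library-size scaling *Vwf* and *Selp* lost their calls. DESeq2 called 3 genes higher (6.3% of all genes) and 10 lower (5.62%) in place of 1 and 5. Without IgGL replicate 1, 6 higher (9.48%) and 11 lower (7.84%) were called. The summed level of alveolar type 2 markers was 5740 to 10672 normalized CPM in IgGL and 15407 to 20863 in LepL, and that of red cell markers was 845 to 6422 and 1733 to 2181. Of 6 pericyte and mural cell markers 3 were lower in LepL, with sums of 384 to 444 and 253 to 257. The 5 fibroblast markers were summed at 4865 to 5676 in IgGL and 2191 to 3049 in LepL, with 3 called lower. The 6 macrophage markers were summed at 3380 to 6436 and 7835 to 8082, although their median log2 fold change was -0.60. That sum therefore does not show the direction of the typical marker. The alveolar type 1 markers were summed at 2231 to 2886 and 3324 to 3653 (median log2 fold change 0.52). In both lists 0 genes were called. Their part in the lung values was not tested.

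**Figure D4:**
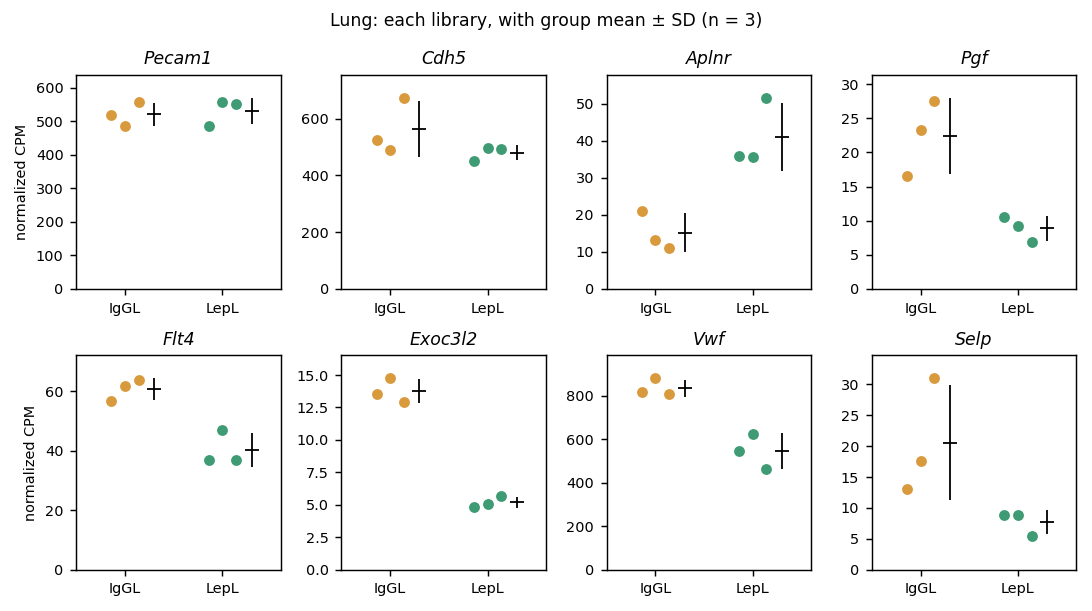
Normalized CPM (vertical axes, from 0) of the endothelial markers *Pecam1* and *Cdh5* and of the 6 genes called in lung, in the 3 IgGL and 3 LepL libraries (points), with the mean ± SD beside them. The groups are apart in each of the 6 called genes and overlap in *Pecam1* and *Cdh5*.

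Because a call in 1 organ and not in the other does not show a difference, the kidney effect of LepAb was compared directly with the lung effect, as kidney minus lung, in 1 fit of the 12 libraries of injured organs (21488 genes, adjusted p under 0.05). The difference was called higher in 6 genes (3.51% of all genes tested) and lower in 1 (3.62%). With library-size scaling it was called higher in 3 (1.16%) and lower in 2 (9.16%). The median of the 39 genes was 0.21, beside -0.01 for all genes, and -0.04 beside -0.25 with library-size scaling. *Exoc3l2*, which was called in both organs in opposite directions, had the difference with the smallest p (2.18 ± 0.15, adjusted p = 4.11e-05), and *Aplnr* the one in the other direction (-1.82 ± 0.32, adjusted p = 0.0121). *Robo4* differed by 0.72 ± 0.14 (adjusted p = 0.0154). These 3 genes were called in all 12 fits without 1 library and under library-size scaling, where *Flt1*, *Flt4* and *Sox17* lost the call.

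The other 4 were the receptors *Flt1* (0.76 ± 0.17, adjusted p = 0.0233) and *Flt4* (0.80 ± 0.17, adjusted p = 0.0207), the glomerular gene *Ehd3* (0.85 ± 0.18, adjusted p = 0.0209) and *Sox17* (0.60 ± 0.17, adjusted p = 0.0481). In the kidney *Flt1* was at 0.26 ± 0.07, *Flt4* at 0.18 ± 0.13 and *Ehd3* at 0.23 ± 0.10, and in the lung they were at -0.47 ± 0.15, -0.59 ± 0.12 and -0.59 ± 0.15. *Flt1*, *Flt4* and *Ehd3* lost the call without LepK replicate 1, IgGL replicate 2 or LepL replicate 3, *Flt1* and *Ehd3* also without IgGK replicate 2, and *Flt1* without IgGK replicate 3 (0.56 to 0.89 for *Flt1*, 0.74 to 0.93 for *Flt4*, 0.74 to 1.01 for *Ehd3*). *Sox17* was held in 3 of 12 fits, those without LepK replicate 3, IgGL replicate 1 or IgGL replicate 3 (0.48 to 0.71 over all 12). *Pgf* (1.31 ± 0.37, adjusted p = 0.0511), *Gpihbp1* (0.76 ± 0.22, adjusted p = 0.0533) and *Angpt2* (0.82 ± 0.25, adjusted p = 0.0639) did not pass. *Vegfa* (-0.10 ± 0.21) and *Kdr* (-0.14 ± 0.17) had differences close to 0. Organ, injury and day of collection differed together and cannot be told apart.

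**Figure D5:**
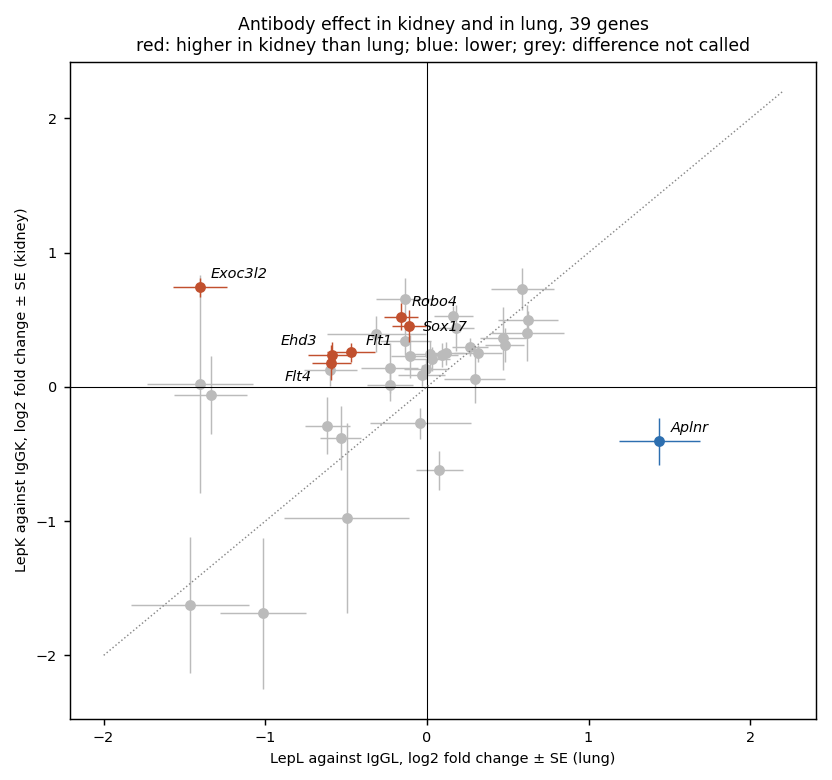
Antibody effect (log2 fold change ± SE) in lung (horizontal axis) and kidney (vertical axis) for the 39 genes, with the 7 genes whose difference was called in colour and named, and a dotted line of equal effects. *Exoc3l2* lies at 0.74 in kidney and -1.41 in lung, and *Aplnr* at -0.41 and 1.44.

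Other genes of the same pathways were taken from lists of pathway members. Bulk RNA does not show which cells carried these RNAs, endothelial or other, and this was not tested. In IgGK against WTK, where 21.7% of all genes tested were called higher and 15.6% lower, 10 of 18 further endothelial surface genes rose and 1 fell (median 0.60, beside 0.04 for all genes), among them *Vcam1*, a leukocyte adhesion molecule, at 4.77 ± 0.20, *Procr*, the protein C receptor, at 1.64 ± 0.31 and *Thbd*, thrombomodulin, at 1.19 ± 0.12. Of 12 further endothelial transcription factors tested 7 rose (median 0.63). A list of VEGF and semaphorin co-receptors and ligands held 8 genes, of which 4 rose (median 0.78). Among them were the ligand *Sema3c* at 1.75 ± 0.08 and the co-receptor *Nrp2* at 1.17 ± 0.10. Of 12 genes of the Notch and arterial axis 5 rose (median 0.38, with *Heyl* at 1.32 ± 0.23 and *Efnb2* at 1.22 ± 0.14). Of 8 angiogenesis inhibitors 6 rose and 1 fell (median 1.69), with *Thbs2*, a thrombospondin, at 2.99 ± 0.18 and *Timp3*, a protease inhibitor that blocks VEGF binding to KDR, at -1.70 ± 0.12. Of 10 hypoxia and angiogenic target genes 1 rose and 3 fell (median -0.07), with *Esm1*, a VEGF-induced marker of tip cells, at -2.31 ± 0.20. Among 8 BMP and ALK1 genes 2 rose and 1 fell, and among 4 further lymphatic genes 2 rose and 1 fell.

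In LepK against IgGK 4.38% of all genes were called higher and 5.99% lower. Of the 18 surface genes 4 fell and 0 rose at an adjusted p under 0.05 and the fold threshold, with *Vcam1* at -0.89 ± 0.16. Of the 8 co-receptor and ligand genes 2 fell (*Nrp2* at -0.66 ± 0.09 and *Nrp1* at -0.50 ± 0.10), and 3 of the 8 inhibitors fell. Of the 12 Notch and arterial genes 1 rose (*Notch4* at 0.54 ± 0.11), and 0 of the 10 hypoxia genes were called. The lymphatic list had 1 gene higher and 1 lower, the BMP list 1 higher and the transcription factors 1 lower. In the lung, where 1.78% of all genes were called higher and 2.36% lower, 3 of the 10 hypoxia genes were lower (*Angptl4* at -1.33 ± 0.22). Of the 8 inhibitors 3 were lower and 1 was higher. In the Notch and arterial list 1 gene was lower (*Heyl* at -1.48 ± 0.22), and 1 co-receptor or ligand gene was higher. Of the surface, transcription factor, BMP and lymphatic genes 0 were called. In 5 platelet markers, cells that also store VWF and P-selectin, 4 could be tested in kidney, of which 2 rose in IgGK, and 2 of 5 were higher in LepL.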

How the data were processed

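The deposited table gave read counts per gene, which the authors took from the sequencing provider without normalization, and FPKM values that the authors scaled by gene length and depth before deposit. The counting tool was not given in the sources used here. The submitters' processing notes name the build GRCm39 (mm39) and DESeq2. Libraries were poly(A)-selected and unstranded. Columns of the authors' own comparisons (fold changes and p-values) and of group means were not used. Members and lists were chosen with earlier results of these data known. The text gives each library for members called in an antibody comparison, for the 8 members with the largest change in IgGK against WTK, and for *Pecam1* and *Cdh5*. At most 3 called genes of any other list are named.

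Counts were filtered with filterByExpr (minimum count 10, minimum total 15), scaled by TMM and tested with edgeR 4.0.16 (glmQLFit, glmQLFTest, R 4.3.3) in 1 fit of the 9 kidney libraries, 1 of the 6 lung libraries and 1 of the 12 injured libraries. The SE is the log2 fold change over the square root of F. P-values were adjusted over all genes. Each weighs the difference between groups against the spread between libraries, which was estimated in part from all genes. The *Angpt2* to *Angpt1* ratio used a pseudocount of 0.1 CPM. Alternatives included DESeq2 1.42.0. The steps were tested on simulated data. Total counts were 25913969 to 38924788, so that 1 count was 0.0257 to 0.0386 CPM. All libraries carried the same batch label.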

Additional observations from a re-analysis of the deposited data

Results flagged for a closer look

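In 7 genes the antibody effect in kidney (LepK minus IgGK) differed from that in lung (LepL minus IgGL) in a test of the difference itself, with an adjusted p under 0.05 in edgeR's quasi-likelihood test. On the log2 scale the difference, kidney minus lung, was 2.18 for *Exoc3l2*, 0.85 for *Ehd3*, 0.80 for *Flt4*, 0.76 for *Flt1*, 0.72 for *Robo4*, 0.60 for *Sox17* and -1.82 for *Aplnr*. *Exoc3l2*, *Robo4* and *Aplnr* were called in all 12 fits without 1 library, *Flt4* in 9, *Ehd3* in 8, *Flt1* in 7 and *Sox17* in 3. *Exoc3l2* and *Robo4* were called in kidney, *Exoc3l2*, *Flt4* and *Aplnr* in lung, and *Flt1*, *Ehd3* and *Sox17* in neither antibody comparison. What sets the organs apart was not tested, since the injury and the day differed with the organ.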

How the results depend on the processing

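With scaling by library size alone, 14 members were higher (39.8% of all genes) and 4 lower (6.01%) for IgGK against WTK. For LepK against IgGK they were 2 (2.08%) and 4 (11.2%). In LepK against WTK 1 was lower (2.61%) and in LepL against IgGL 3 were lower (1.84%). In kidney minus lung 3 were higher (1.16%) and 2 lower (9.16%). The TMM factors were 0.84 to 0.86 in WTK and 1.14 to 1.18 in IgGK, so this scaling moves all genes of that comparison. Without the fold threshold 11 were higher in LepK against IgGK (11% of all genes). In lung, DESeq2 called 3 higher (6.3%) and 10 lower (5.62%). The fit of all 15 libraries called 3 (5.75%) and 10 (4.82%) there, and no filter on low counts 4 (4.32%) and 10 (3.34%). In kidney minus lung, DESeq2 (6.94% of all genes) and no filter (4.19%) each called 2 lower. The cause was not tested. Leaving out 1 library gave 3 to 8 higher and 0 to 4 lower in LepK against IgGK, 4 to 8 higher in LepK against WTK, 0 to 6 higher and 0 to 11 lower in lung, and 2 to 9 higher and 1 to 2 lower in kidney minus lung. It also turned the sign of the *Angpt2* to *Angpt1* difference in IgGK against WTK (-0.20 to 0.27). In kidney the other alternatives stayed within 1.5 times the counts given. Of single-gene values, 2798 kept their side of the threshold, 119 lost a call and 82 gained 1. Of the 2798, 101 changed sign, all in genes called in neither fit.

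Replicate numbers did not pair the libraries: deviations of same-numbered libraries correlated at -0.05 to 0.26 in 9 kidney pairs and at -0.12 to 0.14 in 3 lung pairs. With the number as a replicate block, the calls were 6 higher and 13 lower for IgGK against WTK, 5 and 2 for LepK against IgGK, 6 and 6 in LepK against WTK, 0 and 0 in lung (1 and 3 of all genes), so that all 6 lung calls were lost, and 6 and 1 in kidney minus lung, where *Sox17* lost its call and *Gpihbp1* gained 1. *Selp* lost its call in both comparisons with WTK.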
